A study of Chlamydomonas reinhardtii with 9 samples.

Results

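PsbO and PsbP are 2 extrinsic proteins of the oxygen-evolving complex, which sits on the lumenal face of photosystem II and carries out the oxidation of water. On the spotted arrays described here, each was measured by 1 probe of 3 consecutive spots. PsbO (locus CHLRE_09g396213v5) was on spots 64 to 66 and PsbP (locus CHLRE_12g550850v5) on spots 67 to 69. They are 2 of the 71 three-spot probes of the array and 2 of the 11 probes that the annotation ties to a nuclear locus.

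The RNA came from Chlamydomonas reinhardtii, a unicellular green alga, and was hybridised as total RNA to 9 arrays with 2 channels each. These made up 3 comparisons of 3 arrays each. The nonphotosynthetic mutant mcd1-1 was set against wild-type cells of strain P17 (WT), a second nonphotosynthetic mutant, mcd1-2, was set against that wild type too, and the photosynthetic suppressor mcd2-1 was set against mcd1-2. The labels associate the strains with petD, and as background MCD1 is a nuclear gene needed for the stability of petD mRNA, a chloroplast transcript that encodes a subunit of the cytochrome b6f complex. The labels do not give the age or light regime of the cultures, whether a strain is 1 clone, which other alleles the suppressor carries, or whether the arrays of a comparison came from separate cultures, so each p-value reflects array-to-array spread alone, part or all of which may be technical.

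Both genes lie in the nucleus, and their products are imported across the chloroplast envelope and the thylakoid membrane. PsbO stabilises the manganese cluster that splits water, and Chlamydomonas cells without it fail to accumulate photosystem II. PsbP helps the complex to retain calcium and chloride, and Chlamydomonas cells without it keep photosystem II but evolve little oxygen. The cytochrome b6f complex, which the mcd1 mutations affect through petD, takes electrons downstream of photosystem II. The comparisons therefore ask whether the RNAs of these nuclear genes differ in cells with a defect in another complex of the electron transport chain.

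Values are deposited log ratios, taken as log2, averaged over the spots of a probe, with the median of the 71 probes subtracted on each array. A value of 0 is thus the typical probe of that array. The direction is taken as channel 1 over channel 2, that is mutant over wild type and suppressor over mcd1-2. It is likely and not certain. If it ran the other way, each sign below would turn. On the mcd2-1 arrays, replicates 1 and 2 correlated at -0.314 across all probes (probes are not independent replicates), so the direction there is not settled. Replicates 1 and 3 correlated at -0.109 and replicates 2 and 3 at 0.125. The probe with the largest change in the table, the unnamed spots 97 to 99, lay below 0 on all 6 mutant arrays and above 0 on all 3 mcd2-1 arrays as deposited, at 1.13, 1.78 and 2.83 on replicates 1, 2 and 3. The mcd2-1 values are also given with the sign of replicate 1 or of replicate 2 turned. The lowest correlation between arrays of a comparison was 0.541 for mcd1-1 and 0.552 for mcd1-2. Arrays held values on 197 to 213 of the 213 spots. No spot intensities were used here, so no signal floor could be set, and the number of arrays limits the precision. Of all spots in the table, 2 lay below -10, both on mcd2-1 replicate 3, and 1 of them is a PsbP spot. The main results that include it are given with and without it.

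Neither RNA differed past the threshold in any comparison, by limma with Benjamini-Hochberg adjustment over 71 probes at 0.05. PsbO stood close to the typical probe in both mutants. PsbP stood below it on every mutant array, by 0.16 to 0.86 on the log2 scale. On the suppressor arrays both RNAs varied widely, as the typical probe did there, and the sign of the PsbP mean depended on 1 spot.

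In mcd1-1 over WT, PsbO stood at 0.22, -0.18 and -0.40 on replicates 1, 2 and 3. Replicate 1 lay above the array's typical probe and the other two below it. The mean was -0.12 ± 0.31 (SD, n = 3), with a 95% interval from 1.90-fold lower to 1.61-fold higher (limma adjusted p = 0.968). Of 71 probes, 46 had a higher mean. Leaving out replicate 3 gave 0.021, so the sign of this mean rested on that array.

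PsbP in mcd1-1 over WT stood at -0.86, -0.24 and -0.26, where the value of replicate 3 rests on 2 spots because spot 68 has none. All 3 arrays lay below 0. The mean was -0.45 ± 0.35 (SD, n = 3), a 1.37-fold lower ratio, and the 95% interval ran from 3.13-fold lower to 1.67-fold higher (limma adjusted p = 0.798). This interval is wide because the fit uses one spread per probe for all groups, and that spread includes the spot below -10. Without that spot the mean of mcd1-1 was the same and the interval ran from 2.35-fold lower to 1.26-fold higher (limma adjusted p = 0.636). Without replicate 1 the mean was -0.25, so the size of the difference rested on that array. In this comparison 0 of the 2 genes passed by limma, also at an unadjusted p under 0.05, against 1.41% of all probes called and 6 of 71 with an unadjusted p under 0.05.

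**Figure D1:**
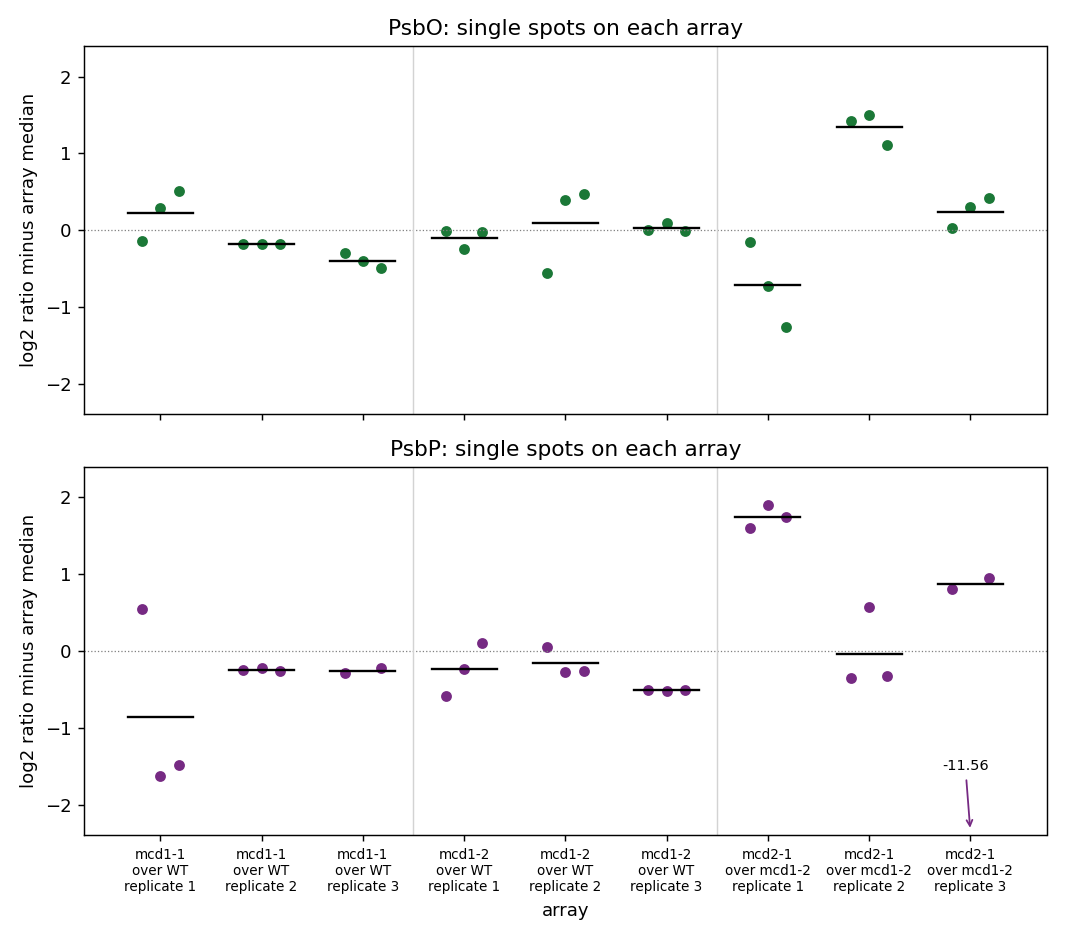
Single spots of PsbO (upper panel) and PsbP (lower panel) on each of the 9 arrays, as log2 ratio minus the array median. Points are spots in order of spot number and black lines are their mean without spots below -10. The PsbP spot at -11.56 lies below the axis and is marked by an arrow. PsbP means lie below 0 on all 6 mutant arrays, and the spots of both genes range most widely on the mcd2-1 arrays.

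In mcd1-2 over WT, PsbO stood at -0.10, 0.10 and 0.03 on replicates 1, 2 and 3. The values lay on both sides of 0. The mean was 0.01 ± 0.10 (SD, n = 3), with a 95% interval from 1.74-fold lower to 1.77-fold higher (limma adjusted p = 0.978). The SD of 0.10 was smaller than that of 67 of the 71 probes, whose median SD in this comparison was 0.44. By the mean of its spots, PsbO was thus among the most even probes across these 3 arrays. Its interval reflects a spread pooled over all comparisons, which includes the more variable suppressor arrays. On replicate 2 that mean joined centred spots of -0.56, 0.39 and 0.47. The median of the 3 spots put the mean of the comparison at 0.14 (limma adjusted p = 0.849). Without replicate 2 the mean was -0.033, so its sign rested on 1 array.

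PsbP in mcd1-2 over WT stood at -0.24, -0.16 and -0.51. All 3 arrays lay below 0, as in mcd1-1. The mean was -0.30 ± 0.19 (SD, n = 3), a 1.23-fold lower ratio, with a 95% interval from 2.81-fold lower to 1.85-fold higher (limma adjusted p = 0.857). Without the spot below -10 in the fit, the interval ran from 2.12-fold lower to 1.40-fold higher (limma adjusted p = 0.836). Leaving out replicate 3 gave -0.20. In this comparison 0 of the 2 genes passed by limma, also at an unadjusted p under 0.05, against 5.63% of all probes called and 8 of 71 with an unadjusted p under 0.05.

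PsbP lay below 0 on 6 of 6 mutant arrays and PsbO on 3 of 6. Of the 66 probes with a value on all 6, 5 (7.58%) lay below 0 on every one and 7 lay above 0 on every one. PsbP and another nuclear locus, CHLRE_06g259900v5, were among those below 0. Both mutants were compared with the same wild type, so the sets of 3 arrays are not independent of each other.

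**Figure D2:**
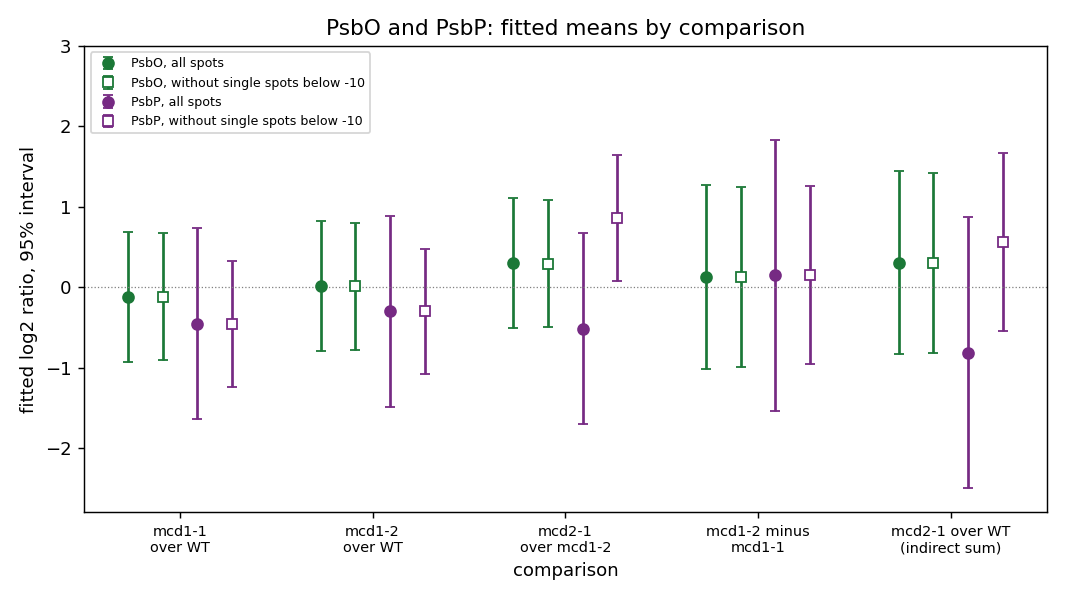
Fitted log2 ratios of PsbO and PsbP with 95% intervals of the moderated fit in the 3 comparisons, the difference between the mutants and the indirect ratio of mcd2-1 over WT. Filled circles use all spots and open squares leave out single spots below -10. The 2 PsbP estimates stand on opposite sides of 0 for mcd2-1 over mcd1-2, at -0.52 and 0.86, and for the indirect ratio.

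No array set the mutants against each other. The difference of their ratios to wild type, an indirect contrast, did not pass the threshold for either gene. Its intervals treat the 2 sets of arrays as independent, though both share the wild type. The mean of PsbO was 0.01 in mcd1-2 and -0.12 in mcd1-1, so the difference was 0.13, with a 95% interval from -1.01 to 1.27 (limma adjusted p = 0.997). The mean of PsbP was -0.30 in mcd1-2 and -0.45 in mcd1-1, so the difference was 0.15, with an interval from -1.53 to 1.84 (limma adjusted p = 0.997), and from -0.96 to 1.26 without the spot below -10. Without mcd1-1 replicate 1 the PsbP difference was -0.051, and without mcd1-1 replicate 3 the PsbO difference was -0.010, so neither sign held. In this contrast 0 of the 2 genes passed by limma, also at an unadjusted p under 0.05, against 1.41% of all probes called and 2 of 71 with an unadjusted p under 0.05.

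On the suppressor arrays, mcd2-1 over mcd1-2, PsbO stood at -0.71, 1.35 and 0.25 on replicates 1, 2 and 3. Replicate 2 was the highest of all 9 arrays for this gene and replicate 1 the lowest. On replicate 2 only 4 of the 71 probes stood higher than PsbO. The mean was 0.30 ± 1.03 (SD, n = 3), with a 95% interval from 1.43-fold lower to 2.15-fold higher (limma adjusted p = 0.85). The SD was close to the median SD of all probes on these arrays, 0.85. It was larger than that of PsbO in mcd1-1 (0.31) and mcd1-2 (0.10). The fit pools all of these, so the interval understates the spread of the suppressor arrays. Without replicate 2 the mean was -0.23 and without replicate 1 it was 0.80, so single arrays set its sign and size. With the sign of replicate 1 turned the mean was 0.77 (limma adjusted p = 0.18), and with that of replicate 2 turned it was -0.60 (limma adjusted p = 0.411).

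PsbP in mcd2-1 over mcd1-2 stood at 1.75, -0.04 and -3.26. Replicate 1 was high, replicate 2 near 0 and replicate 3 far below all other arrays. The value of replicate 3 comes from deposited spot values of 0.74, -11.63 and 0.88 on spots 67, 68 and 69. Without the middle spot, replicate 3 stood at 0.87, and the order of the arrays changed.

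With all spots the mean of PsbP was -0.52 ± 2.54 (SD, n = 3), with a 95% interval from 3.27-fold lower to 1.60-fold higher (limma adjusted p = 0.85). Its SD was the second largest of the 71 probes in this comparison. Leaving out the spot below -10 put its SD at rank 27 from the largest, beside a median of 0.85 over all probes. Without the spot below -10 the mean was 0.86 ± 0.89 (SD, n = 3), a 1.82-fold higher ratio, and its 95% interval ran from 1.06-fold to 3.13-fold higher. PsbP then had an unadjusted p of 0.0316 and an adjusted p of 0.374 by limma, which did not pass. Of the 71 probes, 3 then had a higher mean. The fit pools the SD of 0.89 with those of PsbP in mcd1-1 (0.35) and mcd1-2 (0.19). This interval and these p-values thus understate the spread of the suppressor arrays. PsbP was above 0 on 2 of 3 arrays, and with each of these arrays left out in turn its mean lay between 0.42 (without replicate 1) and 1.31 (without replicate 2, limma adjusted p = 0.0624).

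The median of the 3 spots in place of their mean, which keeps the spot below -10 but gives it no weight by size, put PsbP at 0.73 (limma adjusted p = 0.51). With the sign of replicate 1 turned and all spots kept, PsbP passed, at -1.68 (limma adjusted p = 0.0461). Without the spot below -10 the same turn gave -0.31 (limma adjusted p = 0.636), so that call rested on the 1 spot. With the sign of replicate 2 turned the mean was -0.49 with all spots and 0.89 without that spot (limma adjusted p = 0.738 and 0.153). In this comparison 0 of the 2 genes passed by limma with the arrays as deposited, and 0 had an unadjusted p under 0.05 with all spots, against 1.41% of all probes called and 6 of 71 with an unadjusted p under 0.05.

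**Figure D3:**
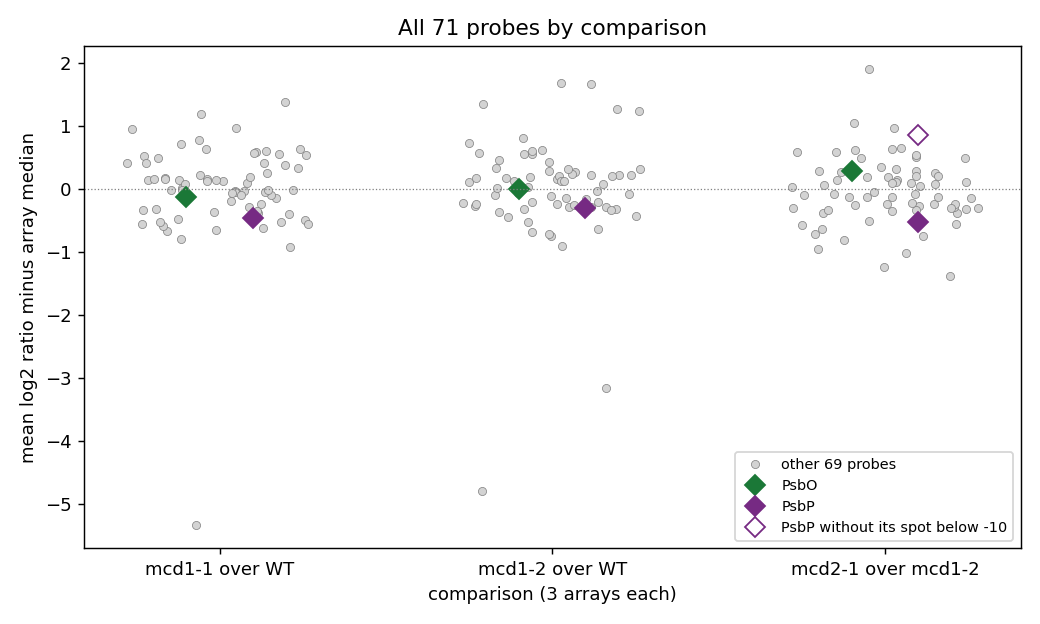
Mean log2 ratio minus array median of all 71 probes in each comparison of 3 arrays, with PsbO and PsbP as diamonds and the other 69 probes as grey points spread sideways at random. Both genes lie within the bulk of the probes in the 2 mutant comparisons. In mcd2-1 over mcd1-2, PsbP stands at -0.52 with all spots (filled) and at 0.86 without its spot below -10 (open).

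No array sets the suppressor against the wild type. The sum of the mcd1-2 over WT and mcd2-1 over mcd1-2 means gives an indirect ratio of mcd2-1 over WT. PsbO stood at 0.31 on this scale, with a 95% interval from 1.79-fold lower to 2.73-fold higher (limma adjusted p = 0.999). PsbP stood at -0.82 with all spots, with an interval from 5.67-fold lower to 1.82-fold higher (limma adjusted p = 0.831), and at 0.56 without the spot below -10, with an interval from 1.46-fold lower to 3.17-fold higher (limma adjusted p = 0.839). Without mcd2-1 replicate 2 the PsbO sum was -0.22, and without mcd2-1 replicate 3 the PsbP sum was 0.56. With the sign of mcd2-1 replicate 1 turned the PsbO sum was 0.78, and with that of replicate 2 turned it was -0.59. The PsbP sum with replicate 1 turned was -1.99 with all spots and -0.61 without the spot below -10 (limma adjusted p = 0.0981 and 0.605). With replicate 2 turned it was -0.79 with all spots and 0.58 without that spot. The intervals of the indirect ratio treat the 2 sets of arrays as independent, though both include mcd1-2. For this ratio 0 of the 2 genes passed by limma, also at an unadjusted p under 0.05, against 1.41% of all probes called and 5 of 71 with an unadjusted p under 0.05.

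For both genes the order of the 3 measured ratios was set by arrays that overlap. For PsbO it was mcd2-1 over mcd1-2 (0.30), mcd1-2 over WT (0.01) and mcd1-1 over WT (-0.12), and each step was smaller than the SD between the suppressor arrays or the mcd1-1 arrays. For PsbP it was mcd1-2 over WT (-0.30), mcd1-1 over WT (-0.45) and mcd2-1 over mcd1-2 (-0.52), and without the spot below -10 the suppressor ratio (0.86) moved to the top. The step between the mutants, 0.15, was smaller than the SD of either mutant. Both orders depend on the direction of the suppressor arrays. With replicate 2 turned the suppressor ratio of PsbO (-0.60) was the lowest of the 3, and with replicate 1 turned that of PsbP without the spot below -10 (-0.31) stood next to mcd1-2 over WT (-0.30).

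The 2 genes were also compared on the same array, as PsbP minus PsbO in log2 ratio, which measures unequal change and not a difference in level. In mcd1-1 over WT the differences were -1.08, -0.07 and 0.14, with a mean of -0.33 ± 0.65 (SD, n = 3, exact two-sided sign-flip permutation p = 0.75). Replicate 1 carried most of it, and without that array the mean was 0.038. In mcd1-2 over WT the differences were -0.14, -0.26 and -0.54, with a mean of -0.31 ± 0.21 (SD, n = 3, exact permutation p = 0.25). PsbP was the lower of the pair on 3 of 3 arrays there, and 0.25 is the smallest p that 3 arrays allow. Without replicate 3 the mean was -0.20.

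In mcd2-1 over mcd1-2 the PsbP minus PsbO differences were 2.46, -1.38 and -3.52, with a mean of -0.81 ± 3.03 (SD, n = 3, exact permutation p = 0.75). Replicates 1 and 2 went opposite ways, with PsbP high and PsbO low on replicate 1, and PsbO high and PsbP near 0 on replicate 2. Without the spot below -10, replicate 3 was at 0.63 and the mean at 0.57 ± 1.92 (SD, n = 3, exact permutation p = 0.75). With the sign of replicate 1 turned the mean was -2.45 with all spots and -1.07 without that spot, and with that of replicate 2 turned it was 0.11 and 1.49.

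The spots of both probes agreed less well than those of most probes. The median over 9 arrays of the SD between spots was 0.20 for PsbO and 0.18 for PsbP, against 0.09 for the median probe, which placed PsbO at rank 4 and PsbP at rank 6 from the highest of 71. The SD of PsbO exceeded the array's median probe on 8 of 9 arrays, and that of PsbP on 6 of 9. The agreement varied from array to array. On mcd1-1 replicate 2 the 3 PsbO spots, before centring, were -0.209, -0.213 and -0.207, and on mcd1-2 replicate 3 the PsbP spots were -0.635, -0.639 and -0.635.

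On other arrays single spots decided the value. On mcd1-2 replicate 2 the PsbO spots were -0.18, 0.77 and 0.85 before centring, and the mean near the array median joined 1 spot below it with 2 above it. On mcd1-1 replicate 1 the PsbP spots were 0.41, -1.77 and -1.62, and their SD of 1.22 was the largest of the 71 probes on that array. The median of these spots in place of the mean put PsbP in mcd1-1 at -0.68 (limma adjusted p = 0.532). On mcd2-1 replicate 1 the PsbO spots were -0.06, -0.63 and -1.16, with an SD of 0.55, while the PsbP spots there were 1.70, 1.99 and 1.85, with an SD of 0.15. The high PsbP value of that array thus appeared on all 3 spots.

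Counted by spot after centring, 7 of 9 PsbO spots lay below 0 in mcd1-1 and 5 of 9 in mcd1-2, and 3 of 9 did so in the suppressor comparison. For PsbP, 7 of 8 lay below 0 in mcd1-1 and 7 of 9 in mcd1-2, and 3 of 9 in the suppressor comparison. Spots of 1 array share their RNA and are not replicates.

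**Figure D4:**
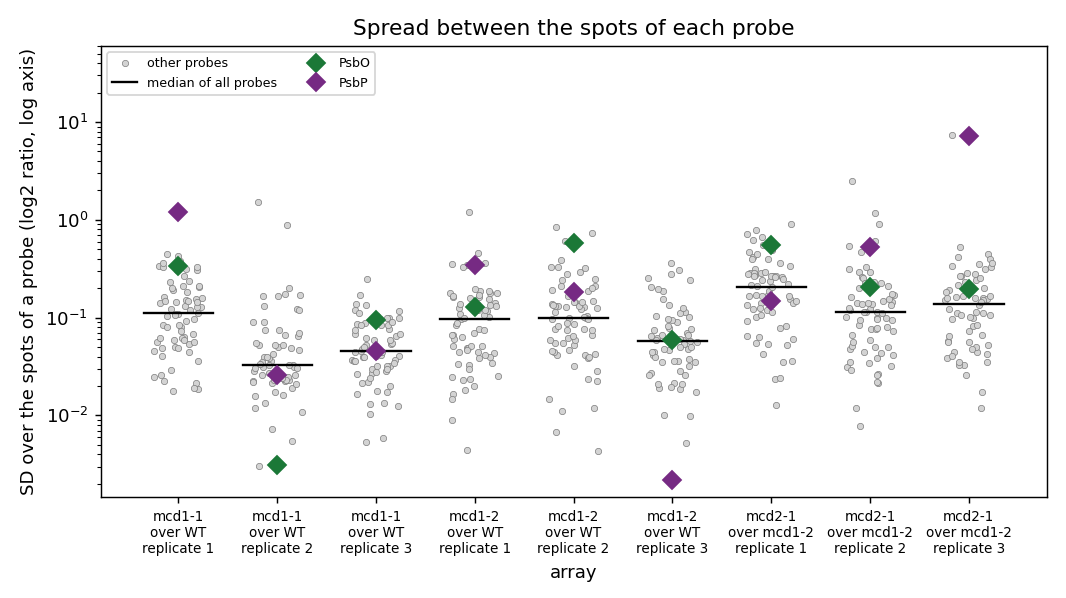
SD between the spots of a probe on each array, in log2 ratio on a log axis. Grey points are the other probes, black lines the median of all probes, and diamonds PsbO and PsbP. PsbP lies far above the other probes on mcd1-1 replicate 1 (1.22) and, with 1 other probe, on mcd2-1 replicate 3 (7.18).

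A set of 3 arrays, 1 of each comparison, lacked values for the same 4 probes, and the values were compared within this set and outside it. In mcd1-1 over WT, PsbO stood at -0.18 on the array of the set and at -0.09 on the mean of the others, and PsbP at -0.24 and -0.56. In mcd1-2 over WT, PsbO stood at 0.03 and at 0.0015, and PsbP at -0.51 and -0.20. In mcd2-1 over mcd1-2, PsbO stood at 0.25 and 0.32. PsbP stood at -3.26 on the array of the set, or 0.87 without the spot below -10, and at 0.86 on the mean of the others. Apart from that spot the signs matched in both sets, but this says little. For PsbO the mean of the others joined arrays on opposite sides of 0 in every comparison. These stood at 0.22 and -0.40 in mcd1-1, -0.10 and 0.10 in mcd1-2, and -0.71 and 1.35 in mcd2-1 over mcd1-2. The same held for PsbP in mcd2-1 over mcd1-2, at 1.75 and -0.04.

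The other 9 nuclear loci on the array gave a frame for the 2 genes. None of the 9 passed the limma threshold in any comparison. Their median was -0.14 in mcd1-1, -0.26 in mcd1-2 and -0.12 in mcd2-1 over mcd1-2, beside medians over all 71 probes of -0.01, 0.02 and -0.08. In mcd1-1 all 9 lay below 0, from -0.65 (CHLRE_06g259900v5) to -0.01 (CHLRE_09g395950v5), against 36 of all 71 probes. PsbO and PsbP lay below 0 there as well. In mcd1-2, 6 of 9 did, from -0.74 (CHLRE_07g326150v5) to 0.33 (CHLRE_03g169550v5), against 34 of 71 probes. In the suppressor comparison 6 of 9 did, against 37 of 71 probes, or 5 of 9 without the spots below -10. The mean of PsbP lay below 0 there only while its low spot was kept.

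The probes most like each gene were ranked by Pearson's r over the 9 arrays among 65 probes with enough values. For PsbO they were spots 160 to 162 (r = 0.857), locus CHLRE_16g671400v5 (r = 0.809) and spots 145 to 147 (r = 0.801). Like PsbO, all 3 had as deposited their highest value of any array on mcd2-1 replicate 2, at 1.86, 1.04 and 1.42, and they share that array. For PsbP with all spots they were spots 202 to 204 (r = 0.905), spots 199 to 201 (r = 0.897) and locus CHLRE_03g182551v5 (r = 0.817), and all 3 had their lowest value on mcd2-1 replicate 3, at -0.95, -0.79 and -4.74. The value of that locus there includes the other spot below -10, at -13.4.

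Without the spots below -10 the probes most like PsbP were others. They were spots 163 to 165 (r = 0.895), spots 187 to 189 (r = 0.875) and spots 184 to 186 (r = 0.87), each with its highest value on mcd2-1 replicate 1, at 1.20, 1.59 and 1.08. PsbO and PsbP themselves did not rank close to each other, with r = -0.327 over the 9 arrays, or -0.32 without the spots below -10. With the sign of mcd2-1 replicate 1 turned, the same 3 probes stayed closest to PsbO, and with that of replicate 2 turned 2 of the 3 did, with r = 0.611 for spots 145 to 147. For PsbP without the spots below -10, 2 of the 3 stayed under either turn. With all spots, the r between PsbO and PsbP was -0.124 with replicate 1 turned and -0.571 with replicate 2 turned. These correlations rest on 9 arrays in 3 comparisons and are given as a description.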

How the data were processed

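Each of the 213 spots carries a log ratio of the 2 channels in the authors' deposited table. How these were made (tools, dyes, background, normalization, centring, log base) is not stated in the labels. The deposited values were read as log2: the lowest one is -13.4, and natural logs of ratios of 16-bit intensities stay within 11.1 in size. Only the 2 spots below -10 bear on this, so every fold rests on them. The direction was taken from the order of the channels in the labels. Consecutive sets of 3 spots formed 71 probes, of which the annotation names 11, and RefSeq (Chlamydomonas_reinhardtii_v5.5) held every one of the 11 loci. The files name no build, so coordinates are left out, and no sequences were used here.

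Spots were averaged per probe and centred on the median probe of the array. The fit used limma 3.58.1 under R 4.3.3, with one mean per comparison, lmFit and eBayes, 6 residual and 14.6 prior degrees of freedom. Means were tested two-sided against 0, or as contrasts, with Benjamini-Hochberg adjustment over 71 probes at 0.05. A probe needed 2 arrays per group. Intervals are 95% intervals of this fit. Its test on simulated data gave every comparison the same SD and put changes in mcd1-1 only. That test checked the calls and the mean change, not the intervals. The fit shares a single spread per probe among the comparisons. The median SD was 0.85 in mcd2-1 over mcd1-2, against 0.35 in mcd1-1 and 0.44 in mcd1-2. Intervals and p-values thus tend to understate the spread of the suppressor arrays, also in the indirect ratio. The same pooling tends to overstate the spread of the mutant arrays. With only the arrays of the comparison in the fit, the limma adjusted p of PsbP was 0.237 in mcd1-1 and 0.555 in mcd1-2. That of PsbO was 0.822 and 0.958, so neither gene passed. PsbP minus PsbO was tested by exact sign flips. The genes named are PsbO and PsbP, examples among the other 9 annotated loci and, for each of the 2 genes, the 3 probes with the highest correlation. A planned narrowing of the 9 loci by RefSeq product was not made, because the table used here holds no product names. Functions are background. The 2 genes, lists and tests were chosen with earlier results of these data known. Between arrays with the same replicate number, deviations from the comparison means correlated at -0.375 to 0.379, so the numbers were not taken as pairs. Alternatives covered spot summary, centring, scaling, weights, moderation, blocks, turned signs and left-out arrays.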

Additional observations from a re-analysis of the deposited data

How the results depend on the processing

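PsbP kept its negative mean in mcd1-1 (-0.68 to -0.25) and in mcd1-2 (-0.37 to -0.14) under the 8 of 23 alternatives that moved each mean at all, and passed in none of the 23. PsbO passed in none of its comparisons. In mcd2-1 over mcd1-2, PsbP passed with the sign of replicate 1 turned (-1.68) and turned positive without the spots below -10 (0.86) and with the median of the 3 spots (0.73). For the indirect ratio of mcd2-1 over WT, PsbP was at 0.56 and 0.41 under those 2 settings, while PsbP minus PsbO in mcd2-1 over mcd1-2 was 0.57 and 0.41. Turning the sign of replicate 2 put PsbO at -0.60 in mcd2-1 over mcd1-2 and -0.59 in the indirect ratio, and PsbP minus PsbO at 0.11. The settings that combine a turned sign, or a left-out suppressor array, with leaving out the spots below -10 were chosen after seeing the data. With replicate 2 turned they put PsbO at -0.61 and PsbP at 0.89 in mcd2-1 over mcd1-2, and -0.60 and 0.58 in the indirect ratio, with PsbP minus PsbO at 1.49 in mcd2-1 over mcd1-2. With replicate 1, 2 or 3 left out they put PsbP at 0.42, 1.31 and 0.86 in mcd2-1 over mcd1-2, and PsbO at -0.24 without replicate 2.

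With single arrays left out and all spots kept, PsbO ranged from -0.29 to 0.021 in mcd1-1, from -0.033 to 0.065 in mcd1-2, from -0.23 to 0.80 in mcd2-1 over mcd1-2, from -0.010 to 0.30 in the difference between the mutants and from -0.22 to 0.81 in the indirect ratio. PsbP ranged from -1.65 to 0.86 in mcd2-1 over mcd1-2, from -0.051 to 0.26 in the difference and from -1.95 to 0.56 in the indirect ratio. PsbP minus PsbO ranged from -0.57 to 0.038 in mcd1-1, from -0.40 to -0.20 in mcd1-2 and from -2.45 to 0.54 in mcd2-1 over mcd1-2. The values with an array left out depend on which array was removed. The cause of these and of the other shifts was not tested.

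The number of all probes called moved more. In mcd1-1 it was 1, and became 10 with array weights, 3 with arrays scaled to one spread or replicate 1 of mcd2-1 turned, 2 with robust moderation, with a block for the arrays with shared missing probes or without the spots below -10, and 1 to 3 with single arrays left out. In mcd1-2 it was 4, and became 8 with array weights and 2 to 6 with single arrays left out. In mcd2-1 over mcd1-2 it was 1, and became 0 with only those arrays in the fit, with array weights, with scaled arrays or with replicate 2 turned, 3 with replicate 1 turned, and 0 to 3 with single arrays left out. In the indirect ratio it was 1, and became 0 without centring or with array weights, 3 with the replicate block, 2 with scaled arrays, the block for missing probes, either sign turned or without the spots below -10, and 0 to 2 with single arrays left out. The replicate block changed no call of PsbO or PsbP (PsbP in mcd1-1 at -0.45, limma adjusted p = 0.764), and 2 of 9 arrays correlated best with an array of their own number. The number of arrays limits all of these values.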

Other observations

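On mcd1-1 replicate 1 the deposited values of the spots around these probes did not change at the border between PsbO and PsbP. Spots 65, 66 and 67 stood at 0.16, 0.38 and 0.41, where 65 and 66 belong to PsbO and 67 to PsbP. Spots 68 and 69, the other PsbP spots, stood at -1.77 and -1.62, and the following spots 70, 71 and 72, of an unnamed probe, at -1.64, -1.85 and -1.68. Over all probes and arrays, the median SD between the spots of a probe was 0.0844 with the grouping used, against 0.328 and 0.337 when the grouping was moved by 1 or 2 spots. This median cannot tell whether spot 67 was grouped rightly on mcd1-1 replicate 1.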
